A study of Mus musculus with 19 samples.

Results

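Cytosolic sulfotransferases are the enzymes that attach a sulfonate group to hormones, bile acids, phenols, amines and drugs. The 10 genes described here, Sult1a1, Sult1b1, Sult1d1, Sult1e1, Sult2a1, Sult2a2, Sult2a8, Sult3a1, Sult3a2 and Sult5a1, were chosen by symbol, and all 10 of 10 were found among the 49315 genes of the count tables. They were measured by bulk RNA sequencing in liver from 19 female mice, with 1 library per mouse, of a colony founded from the strain C57BL/6N-Atm1Brd Gramd1ctm1a(KOMP)Wtsi/JMmucd. Mice carrying the tm1a knockout-first allele of Gramd1c, which interrupts the gene in the whole body, were compared with littermates from crosses of heterozygotes. Gramd1c encodes Aster-C, a protein that moves cholesterol between membranes. From 8 weeks of age the mice ate a synthetic diet with 0.02% (low) or 0.2% (high) cholesterol by weight for 4 weeks. The low cholesterol groups held 5 Gramd1c+/+ and 4 Gramd1c-/- animals, and the high cholesterol groups 5 of each genotype.

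The sulfonate group comes from the donor PAPS, and a sulfated product is usually more soluble in water and more easily excreted. Members of the SULT1 family act mostly on phenols, thyroid hormones, catecholamines and estrogens, whereas SULT2 enzymes act on hydroxysteroids and bile acids, and SULT3 enzymes on amines. In mouse liver Sult2a1, Sult2a2 and Sult3a1 are known as genes with much higher expression in females than in males.

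Total counts per library ran from 27149972 to 34669648. Gramd1c itself was at 9.56 to 16.0 TPM (a transcript level scaled for gene length and library depth) in Gramd1c+/+ and at 1.07 to 3.61 TPM in Gramd1c-/- livers, and so did not contradict any label. The tissue field of the labels names gonadal adipose tissue and the cell type field liver. The 4 hepatocyte markers (Alb, Ttr, Apoa1 and Cps1) summed to 72390 TPM or more in every library, while the 4 adipocyte markers summed to between 1.60 and 23.9 TPM. Several libraries stood apart. Gramd1c+/+ mouse 2 on low cholesterol held 569 TPM of 5 adrenal cortex markers, where no other mouse exceeded 3.69 TPM. Gramd1c-/- mouse 3 on high cholesterol held 141 TPM of 4 cholangiocyte markers, against at most 8.04 TPM elsewhere, Gramd1c-/- mouse 4 on high cholesterol held the highest sum of 4 Kupffer cell markers, 704 TPM, and Gramd1c-/- mouse 5 on high cholesterol lay farthest out on the first principal component. Kidney markers reached at most 1.01 TPM. In bulk liver, fewer cells of a type and less RNA per cell cannot be told apart.

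The genes lie in a few clusters of the genome (coordinates from the count tables, GRCm38). Sult3a2 (chr10:33766424-33782115, minus strand) and Sult3a1 (chr10:33863935-33879475, plus strand) are neighbours on chromosome 10. Sult2a2 (chr7:13733505-13779636, plus strand) and Sult2a1 (chr7:13796246-13837409, minus strand) lie side by side on chromosome 7, with Sult2a8 (chr7:14410686-14446769, minus strand) farther along. Sult1b1 (chr5:87513339-87538195), Sult1d1 (chr5:87554645-87569027) and Sult1e1 (chr5:87575969-87591594) follow each other on the minus strand of chromosome 5. Sult1a1 (chr7:126672865-126676432) and Sult5a1 (chr8:123140192-123158315), also on the minus strand, lie away from the other members. Over the aligned part of the annotated coding sequence (GENCODE M21), Sult3a1 and Sult3a2 were identical at 802 of 882 bases (90.9%), and Sult2a1 and Sult2a2 at 573 of 585 (97.9%). The SULT3 alignment had 0 bases in gaps and the SULT2A alignment 273. The annotated coding sequence has 858 bases in Sult2a1 and 585 in Sult2a2. How far reads could tell the members of each pair apart is visible in the first 150 coding bases, printed 5′ to 3′ with bases that differ from the partner in capitals.
Sult3a1: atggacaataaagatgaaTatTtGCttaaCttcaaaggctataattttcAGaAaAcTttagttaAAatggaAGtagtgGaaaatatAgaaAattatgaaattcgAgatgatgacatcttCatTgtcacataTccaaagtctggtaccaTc
Sult3a2: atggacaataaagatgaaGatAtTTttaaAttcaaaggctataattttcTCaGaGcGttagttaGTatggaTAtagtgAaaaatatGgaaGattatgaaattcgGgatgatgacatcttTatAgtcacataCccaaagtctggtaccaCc
Sult2a1: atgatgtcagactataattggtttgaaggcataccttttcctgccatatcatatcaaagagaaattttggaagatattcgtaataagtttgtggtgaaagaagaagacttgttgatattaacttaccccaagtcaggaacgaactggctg
Sult2a2: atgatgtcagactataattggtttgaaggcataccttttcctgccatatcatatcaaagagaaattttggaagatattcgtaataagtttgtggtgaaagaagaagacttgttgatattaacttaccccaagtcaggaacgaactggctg
The SULT3 pair differed at 22 of these 150 bases and the SULT2A pair at 0. Counted over all annotated transcripts, none of the 100-base stretches of Sult3a1 or Sult3a2 occurred in another gene. Of those of Sult2a1, 105 of 921 (11.4%) also occurred in Sult2a2, and of those of Sult2a2, 222 of 642 (34.6%) occurred in another gene, most often in Sult2a5. The counts of Sult2a1 and Sult2a2 are therefore uncertain to the extent that the counting divided shared reads. Sult1a1 shared 28 of 1599 stretches with Gm6939, and the other 5 genes shared none.

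The start regions of the SULT3 genes are shown because these genes moved together between mice. RefSeq windows of 300 bases (GRCm38.p6, 250 before the start and 50 after) were found for 8 of the 10 genes, and capitals mark matches to TTCNNNGAA, the palindrome bound by STAT factors, searched on both strands.
Sult3a1, chr10:33857472-33857771, plus strand: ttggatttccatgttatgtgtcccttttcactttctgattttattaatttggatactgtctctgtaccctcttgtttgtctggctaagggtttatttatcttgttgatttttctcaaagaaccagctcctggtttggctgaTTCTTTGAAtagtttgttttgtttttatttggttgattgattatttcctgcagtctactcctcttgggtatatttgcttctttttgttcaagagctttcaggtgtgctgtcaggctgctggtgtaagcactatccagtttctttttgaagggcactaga
Sult3a2, chr10:33782066-33782365, minus strand: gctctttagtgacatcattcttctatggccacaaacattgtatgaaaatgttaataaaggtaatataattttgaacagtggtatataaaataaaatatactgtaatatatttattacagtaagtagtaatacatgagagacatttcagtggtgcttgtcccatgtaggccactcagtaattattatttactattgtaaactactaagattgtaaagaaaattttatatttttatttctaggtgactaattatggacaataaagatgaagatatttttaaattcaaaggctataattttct
The Sult3a1 window held 1 match, and the windows of the other 7 genes held 0; of all 32851 windows, 8.30% held at least 1. The RefSeq start of Sult3a1 lies upstream, at -6213 bases relative to the gene's start in the count tables, so this window need not be the start used in these livers. That of Sult3a2 falls on its first coding base, since the last 50 bases of the window are the first 50 coding bases. Its exons and its coding sequence both have 882 bases, so no transcribed bases before the coding sequence are annotated. The Sult3a2 window therefore need not hold the start used either, and its lack of a match is not informative.

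Hepatic expression of the family was carried by 4 genes. Over all 19 mice, mean levels per length ran from Sult2a8 (530.1 TPM), a bile acid sulfotransferase of mouse liver, and Sult1a1 (469 TPM), which sulfates small phenols, through Sult3a1 (244 TPM) and Sult1d1 (201 TPM) to Sult2a2 (42.5 TPM), Sult2a1 (39.1 TPM), Sult1b1 (22.2 TPM), Sult3a2 (10.5 TPM), Sult5a1 (8.29 TPM) and Sult1e1 (0.316 TPM). Sult2a8 and Sult1a1 held the first and second place in each of the 4 groups, with ranges over mice that overlapped each other. Sult3a1 ranked above Sult1d1 in both groups on low cholesterol and below it in both groups on high cholesterol, and its range overlapped that of Sult1d1 in every group but Gramd1c+/+ on low cholesterol. Sult2a1 and Sult2a2 were neighbours in the order in all groups but Gramd1c-/- on low cholesterol, and their ranges overlapped in every group. Sult1e1, the estrogen sulfotransferase, was last throughout.

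**Figure D1:**
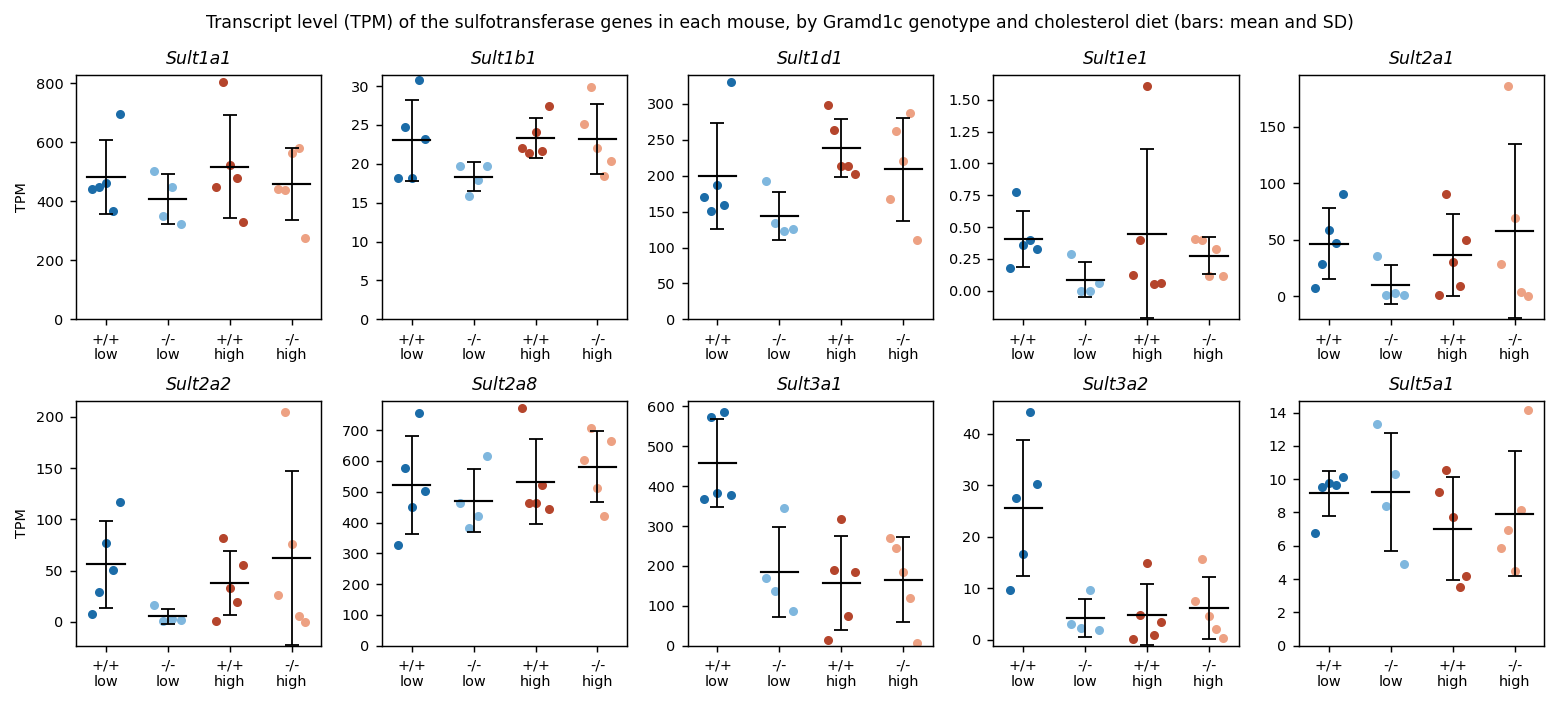
Transcript levels in TPM on linear axes for the 10 genes, 1 point per mouse, in the 4 groups of Gramd1c genotype (+/+ or -/-) and dietary cholesterol (low or high); black lines are the group mean and SD (n = 5, 4, 5 and 5). Sult3a1 in the 5 Gramd1c+/+ mice on low cholesterol lies at 369 TPM or above, higher than in any other mouse, while Sult2a1 and Sult2a2 spread widely within each group.

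The summed level of the 10 genes was 1823 ± 325 TPM (SD, n = 5) in Gramd1c+/+ and 1253 ± 181 TPM (n = 4) in Gramd1c-/- livers on low cholesterol, and 1555 ± 251 TPM and 1573 ± 363 TPM (n = 5 each) on high cholesterol. The ranges of the first pair of groups overlapped, at 1355 to 2175 TPM and 1033 to 1420 TPM. Sult3a1 made up 25.4% of the sum in Gramd1c+/+ livers on low cholesterol, 14.4% in Gramd1c-/- livers on that diet, and 9.999% in Gramd1c+/+ and 9.80% in Gramd1c-/- livers on high cholesterol.

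The genes differed widely in their spread between mice. From the lowest to the highest mouse, the level changed 1314-fold for Sult2a1, 524-fold for Sult2a2, 258-fold for Sult3a2 and 80.7-fold for Sult3a1. The lowest levels of the first 3 rest on 2 to 4 counts, so these ratios carry a large counting error. Among the others that passed the filter on low counts the ratio was between 1.93 (Sult1b1) and 4.01 (Sult5a1). The SD of log2 CPM (counts scaled to library size) between mice of the same group was 2.66 for Sult2a1, 2.45 for Sult2a2, 1.64 for Sult3a2 and 1.52 for Sult3a1, against a median of 0.31 over all 15016 genes tested. These genes ranked 2nd, 3rd, 28th and 40th of those genes in spread. The 5 others were less variable than these, though 4 of them still lay above the median: Sult5a1 had an SD of 0.66 and ranked 1611th, Sult1d1 0.43 and 4279th, Sult1a1 0.42 and 4422nd, and Sult2a8 0.37 and 5463rd. Sult1b1, with an SD of 0.27, ranked 8845th and lay below it.

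**Figure D2:**
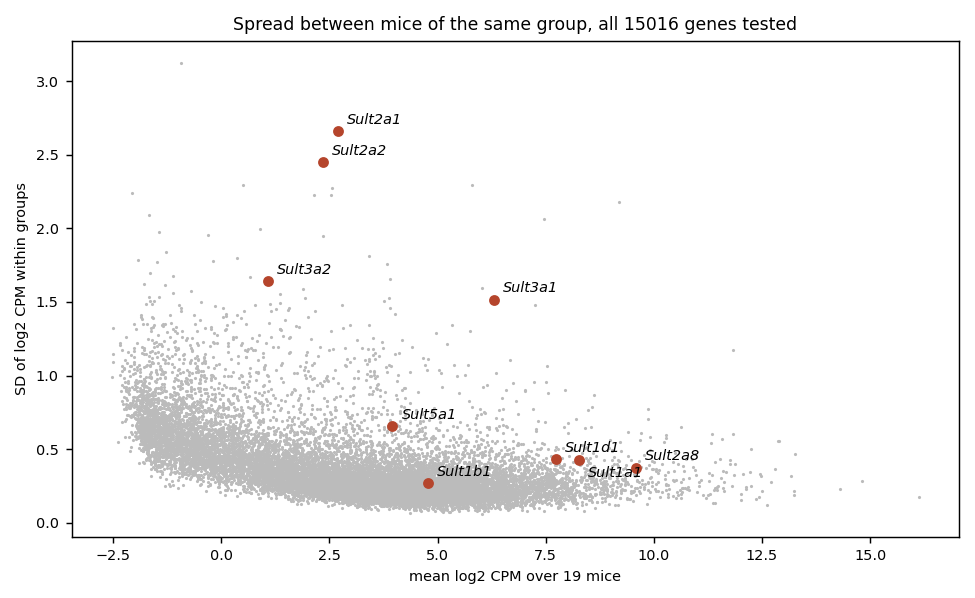
SD of log2 CPM between mice of the same group (vertical axis) against mean log2 CPM (horizontal axis), 1 point per gene for all 15016 genes tested, with the 9 sulfotransferase genes that passed the filter in red. Sult2a1 and Sult2a2 lie near the top of the cloud, at 2.66 and 2.45, and Sult1b1 lies inside it, at 0.27.

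The first comparison asked whether loss of Gramd1c changes these transcripts on low cholesterol. The clearest separation was that of the SULT3 pair, whose levels were lower in all 4 Gramd1c-/- livers than in any Gramd1c+/+ liver. Sult3a1, known for sulfation of amines, was at 369, 574, 384, 585 and 377 TPM in Gramd1c+/+ mice 1 to 5 and at 169, 137, 346 and 87.6 TPM in Gramd1c-/- mice 1 to 4. Sult3a2, its close relative, was at 9.67, 27.5, 16.7, 44.1 and 30.2 TPM and at 3.11, 2.30, 9.57 and 1.84 TPM in the same mice. Gramd1c-/- mouse 3 was the highest of its group for both genes and nearly reached the lowest Gramd1c+/+ mouse. The ratio of mean TPM, Gramd1c+/+ over Gramd1c-/-, was 2.48 for Sult3a1 and 6.10 for Sult3a2. In the two-sided exact permutation test of the difference of mean TPM, p was 0.0159 for each, unadjusted. That is the smallest p that this two-sided test can give with 126 splits of the mice. Among all genes tested, the groups did not overlap in this direction for 1.04%, against 2 of these 9 genes. The 2 are neighbours in the genome and correlated at r = 0.92 between mices of the same group, so they are not independent.

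Sult2a1 and Sult2a2, which sulfate hydroxysteroids such as DHEA, were low in 3 of the 4 Gramd1c-/- mice. Sult2a1 was at 7.41, 28.3, 59.0, 46.9 and 90.6 TPM in Gramd1c+/+ mice 1 to 5 and at 35.7, 1.49, 3.22 and 1.44 TPM in Gramd1c-/- mice 1 to 4. Sult2a2 was at 7.57, 29.2, 77.2, 50.7 and 117 TPM and at 16.7, 0.570, 2.64 and 1.98 TPM. For both genes Gramd1c-/- mouse 1 lay within the Gramd1c+/+ range and the other 3 Gramd1c-/- mice lay below it. The exact permutation p, unadjusted, was 0.0952 for Sult2a1 and 0.0317 for Sult2a2.

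In the fit across all genes none of these differences passed the adjustment for the number of genes tested. edgeR's quasi-likelihood test called 0 of the 9 genes that passed the filter at a Benjamini-Hochberg adjusted p below 0.05, where 0.00666% of all genes were called. The log2 fold change, Gramd1c-/- against Gramd1c+/+, was -2.58 (SE 0.92, 95% interval -4.50 to -0.66) for Sult3a2 and -1.28 (SE 0.74, interval -2.82 to 0.26) for Sult3a1. For Sult2a2 it was -3.33 (SE 1.29, interval -6.01 to -0.65) and for Sult2a1 -2.11 (SE 1.30, interval -4.83 to 0.61). The edgeR adjusted p was 0.999 for all 9 genes. Sult3a2 and Sult2a2 had an unadjusted edgeR p under 0.05, as did 2.66% of all genes, and DESeq2 also called 0 of 9 with 2 under an unadjusted 0.05. With only the low cholesterol groups in the fit, 5 of 9 had an unadjusted p under 0.05 and the smallest adjusted p was 0.453, and voom with sample weights gave 4 of 9, again with 0 called. Without Gramd1c-/- mouse 1 the log2 fold changes of Sult2a1 and Sult2a2 were -4.52 and -5.04.

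The abundant members showed smaller differences on low cholesterol. Sult1a1 was at 440, 449, 461, 367 and 695 TPM in Gramd1c+/+ mice and 504, 349.8, 449 and 322 TPM in Gramd1c-/- mice. Sult2a8 was at 326, 577, 451, 756 and 502 TPM and at 465, 382, 419.8 and 615 TPM. For both genes the groups overlapped over most of their range. Sult1d1, which acts on catecholamines and other amines, was at 171, 151, 187, 159 and 329.9 TPM and at 192, 135, 123 and 125 TPM. The log2 fold changes were -0.25 (interval -0.79 to 0.30) for Sult1a1, -0.15 (-0.64 to 0.34) for Sult2a8 and -0.48 (-1.04 to 0.08) for Sult1d1. Sult1b1, which acts on thyroid hormones, was at 23.0 ± 5.21 TPM (SD, n = 5) and 18.4 ± 1.83 TPM (n = 4), with a log2 fold change of -0.32 (-0.69 to 0.05). Sult5a1, the least studied of these enzymes, was at 9.16 ± 1.35 TPM and 9.24 ± 3.53 TPM, with a log2 fold change of 0.03. In all, 8 of 9 genes had a log2 fold change below 0, with a median of -0.48. Over all 15016 genes 50.3% were below 0 and the median was 0.00. The members share mice and in part sequence, so the 8 signs are not independent.

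**Figure D3:**
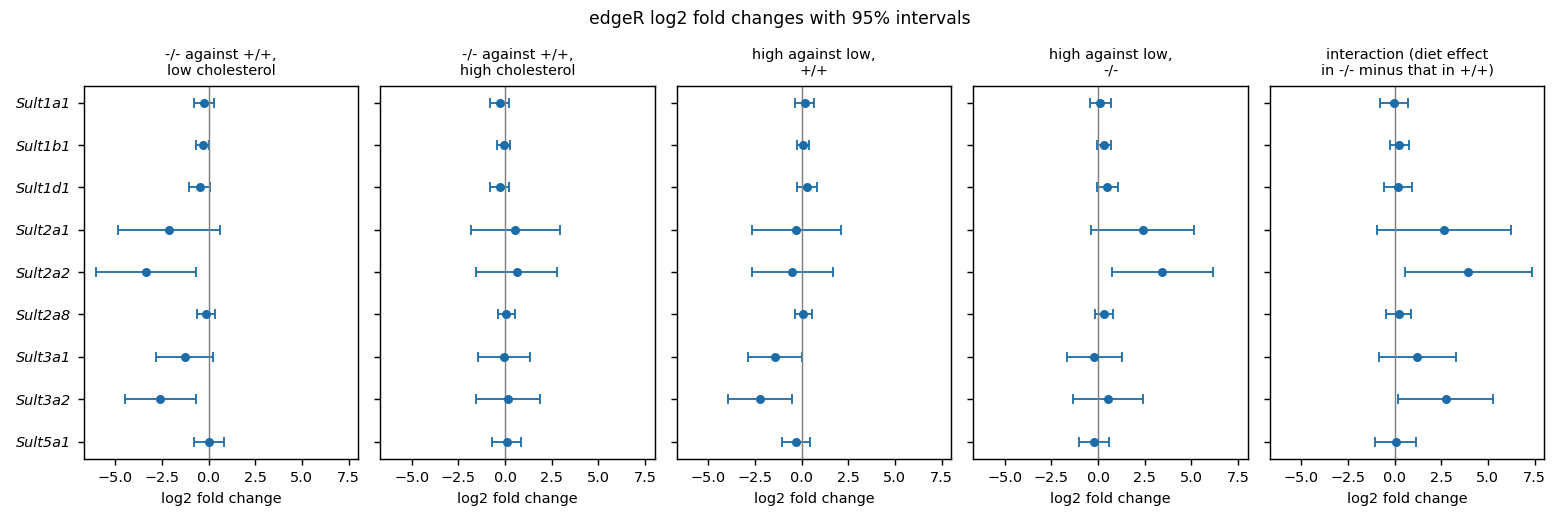
edgeR log2 fold changes (horizontal axis) with 95% intervals for the 9 genes that passed the filter, in the 4 comparisons of groups and the interaction. The intervals of Sult2a1, Sult2a2, Sult3a1 and Sult3a2 are several units wide, and those of Sult1a1, Sult1b1, Sult1d1 and Sult2a8 about 1 unit or less in the genotype comparison on high cholesterol.

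On high cholesterol no gene separated the genotypes. Sult3a1 was at 13.3, 189, 319, 74.9 and 185 TPM in Gramd1c+/+ mice 1 to 5 and at 270.0, 246, 184, 121 and 7.25 TPM in Gramd1c-/- mice 1 to 5. Sult3a2 was at 0.171, 4.76, 14.9, 0.854 and 3.48 TPM and at 7.51, 15.7, 4.71, 2.17 and 0.328 TPM. One mouse of each genotype, Gramd1c+/+ mouse 1 and Gramd1c-/- mouse 5, was far below the rest for both genes. The log2 fold change was -0.06 (SE 0.68, interval -1.47 to 1.35) for Sult3a1 and 0.17 (SE 0.82, interval -1.55 to 1.89) for Sult3a2, so the intervals still hold differences of more than 2-fold in either direction.

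The same mice were at the bottom for the SULT2A pair. Sult2a1 was at 0.739, 91.1, 30.7, 8.73 and 50.2 TPM in Gramd1c+/+ and at 29.0, 186, 69.0, 3.42 and 0.142 TPM in Gramd1c-/- mice. Sult2a2 was at 0.713, 81.7, 33.1, 19.8 and 55.4 TPM and at 26.3, 204, 75.9, 6.09 and 0.390 TPM. Gramd1c-/- mouse 2 was the highest of all 19 for both genes. The log2 fold changes were 0.56 (SE 1.14) for Sult2a1 and 0.62 (SE 1.04) for Sult2a2, and without that mouse they were -0.74 and -0.70. In Gramd1c-/- mouse 5, which lay apart on the first principal component, the hepatocyte markers summed to 92617 TPM and the cholangiocyte markers to 6.39 TPM; in Gramd1c+/+ mouse 1 the same sums were 79678 and 4.87 TPM. Neither sum set these mice apart from the others on this diet, and the part of other cells in their low levels was not tested further.

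Sult2a8 was at 773, 464, 462, 523 and 444 TPM in Gramd1c+/+ and at 602, 707, 512, 423 and 666 TPM in Gramd1c-/- mice, and Sult1a1 at 449, 803, 522, 480.4 and 329.9 TPM and at 441, 438, 562, 579 and 275 TPM. The groups overlapped for both genes. Their log2 fold changes were 0.08 (interval -0.39 to 0.54) and -0.29 (-0.81 to 0.22). The groups did not overlap for 0 of 9 genes, against 0.0599% of all genes in the lower and 0.186% in the higher direction. edgeR called 0 of 9 genes (adjusted p = 0.99996 for each), where 0.00666% of all genes were called, and 0 of 9 were under an unadjusted 0.05 by edgeR or DESeq2 (2.42% of all genes by edgeR). Of the 9 genes 4 were below 0 and the median was 0.08, against 47.8% below 0 and a median of 0.01 over all genes.

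The diet comparison in Gramd1c+/+ mice shares its low cholesterol group with the first genotype comparison, so they are not independent. Sult3a1 was lower in all 5 Gramd1c+/+ mice on high cholesterol (156 ± 118 TPM, n = 5) than in any on low cholesterol (458 ± 111 TPM, n = 5), with a ratio of means, low over high, of 2.93. Its exact permutation p was 0.00794, unadjusted, the smallest that 252 splits can give. The groups did not overlap in this direction for 1.03% of all genes, and for 1 of these 9. Sult3a2 did not separate fully. Its highest mouse on high cholesterol, at 14.9 TPM, lay above the lowest on low cholesterol, at 9.67 TPM, and the exact permutation p was 0.0159, unadjusted. In edgeR the log2 fold change, high against low, was -2.23 (SE 0.83, interval -3.95 to -0.50, adjusted p = 0.490) for Sult3a2 and -1.42 (SE 0.69, interval -2.85 to 0.02, adjusted p = 0.625) for Sult3a1. Without Gramd1c+/+ mouse 3 on high cholesterol the value for Sult3a2 was -3.44. Of the fits tried, voom with sample weights alone called a member here, Sult3a2, at -3.97 (adjusted p = 0.0393).

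The other members differed less with diet in Gramd1c+/+ mice. Sult2a1 and Sult2a2 had log2 fold changes of -0.27 (interval -2.65 to 2.10) and -0.50 (-2.68 to 1.67). Sult1d1 was at 199 ± 74.1 TPM on low and 238 ± 40.7 TPM on high cholesterol, with a log2 fold change of 0.30 (-0.22 to 0.83), and Sult5a1 was at -0.28 (-1.04 to 0.47). edgeR called 0 of 9 genes, where 0.44% of all genes were called, 0.0999% higher and 0.34% lower. Unadjusted, 1 of 9 was under 0.05 (7.93% of all genes), as with DESeq2, which also called 0. In all 5 of 9 were below 0, with a median of -0.27, against 48.8% and 0.01 over all genes.

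In Gramd1c-/- mice the order was different. Sult2a2 had a mean of 5.48 ± 7.55 TPM (n = 4) on low and 62.6 ± 84.6 TPM (n = 5) on high cholesterol, and Sult2a1 of 10.5 ± 16.8 TPM and 57.5 ± 77.0 TPM. Yet Gramd1c-/- mouse 5 on high cholesterol was below every Gramd1c-/- mouse on low cholesterol for both genes, so the groups overlapped. No member separated the diets in these mice, where 2.68% of all genes did so in the higher and 0.773% in the lower direction. The log2 fold change was 3.45 (SE 1.29, interval 0.75 to 6.14, edgeR adjusted p = 0.360) for Sult2a2 and 2.39 (SE 1.32, interval -0.35 to 5.14, adjusted p = 0.480) for Sult2a1. Leaving out Gramd1c-/- mouse 2 on high cholesterol lowered them to 2.12 and 1.10, and leaving out Gramd1c-/- mouse 1 on low cholesterol raised them to 5.16 and 4.80. Sult3a1 and Sult3a2 were at -0.19 (-1.68 to 1.30) and 0.53 (-1.34 to 2.39).

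Of the less variable genes in this comparison, Sult1b1 was at 23.2 ± 4.49 TPM on high against 18.4 ± 1.83 TPM on low cholesterol, with a log2 fold change of 0.33 (-0.04 to 0.70) and an exact permutation p of 0.0635, unadjusted. Sult1d1 was at 209 ± 71.6 TPM against 144 ± 32.8 TPM, with a log2 fold change of 0.49 (-0.07 to 1.05). edgeR called 0 of 9 genes, where 0.326% of all genes were called (0.0333% higher and 0.293% lower), and 1 was under an unadjusted 0.05 (11.4% of all genes); DESeq2 gave the same counts. Of the 9 genes 2 were below 0, with a median of 0.33, against 47.4% and 0.02 over all genes.

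Whether the diet effect differed between genotypes was tested by the interaction, which draws on all 4 groups and hence on the same mice as the comparisons above. It was 3.95 (SE 1.63, interval 0.54 to 7.36) for Sult2a2, 2.75 (SE 1.22, interval 0.21 to 5.29) for Sult3a2, 2.67 (SE 1.72, interval -0.91 to 6.25) for Sult2a1 and 1.23 (SE 0.99, interval -0.84 to 3.30) for Sult3a1. The 5 others lay between -0.05 (Sult1a1) and 0.25 (Sult1b1). edgeR called 0 of 9 genes (adjusted p = 0.99993 for each) and 0.0% of all genes. Sult2a2 and Sult3a2 had an unadjusted edgeR p under 0.05, as did 1.66% of all genes, and DESeq2 gave 0 called and 2 under 0.05. This count went to 0 without Gramd1c-/- mouse 2 or 4 on low cholesterol, or without Gramd1c-/- mouse 2 on high cholesterol. Leaving out that last mouse gave the lowest interaction for Sult2a1 (1.38), Sult2a2 (2.64) and Sult3a2 (2.01). The highest was 5.08 for Sult2a1 and 5.66 for Sult2a2, both without Gramd1c-/- mouse 1 on low cholesterol, and 3.97 for Sult3a2 without Gramd1c+/+ mouse 3 on high cholesterol. Of the 9 genes 1 was below 0 and the median was 0.25, against 47.1% below 0 and a median of 0.02 over all genes.

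Few genes were higher in all Gramd1c+/+ livers on low cholesterol than in all other livers. Genes lower in all of them were not counted. This split is not one of the 5 comparisons, so the share given here is a description with no test. For Sult3a1 the lowest value there was 368.8 TPM, and the highest in the 14 other mice was 345.6 TPM. In only 4 of 15016 genes (0.0266%) did all 5 of these mice lie above the 14 others; the other 3 were Cct7, a chaperonin subunit, Gjb1, the main gap junction protein of hepatocytes, and Rdh16f2, a retinol dehydrogenase family member. Their lowest value there against the highest elsewhere was 37.04 and 37.00 TPM for Cct7, 1227 and 1206 TPM for Gjb1, and 518 and 478 TPM for Rdh16f2. The margins were thus narrow. The highest other mouse for Sult3a1 was Gramd1c-/- mouse 3 on low cholesterol. Gramd1c+/+ mouse 2, the library with adrenal cortex markers, had 574 TPM of Sult3a1 and 27.5 TPM of Sult3a2, and the genotype comparison on low cholesterol without it and without Gramd1c-/- mouse 5 on high cholesterol kept its direction for both genes.

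The animal numbers that head the count columns fall into 2 separate runs, whose meaning the labels do not give. Since the low cholesterol groups did not overlap for the SULT3 genes, they could not overlap within a run either, and the values by run are a description. In the first run Sult3a1 was at 369 to 574 TPM in 3 Gramd1c+/+ and at 137 to 346 TPM in 3 Gramd1c-/- mice on low cholesterol, and in the later run at 377 to 585 TPM in 2 and 87.6 TPM in 1 mouse. Sult3a2 was at 9.67 to 27.5 TPM against 2.30 to 9.57 TPM in the first run and at 30.2 to 44.1 TPM against 1.84 TPM in the later run. In Gramd1c-/- mice on high cholesterol the runs differed: Sult2a1 was at 29.0 to 186 TPM in 3 mice of the first run and at 0.142 to 3.42 TPM in 2 of the later run, and Sult3a1 at 184 to 270.0 TPM and 7.25 to 121 TPM. In Gramd1c+/+ mice on that diet the runs overlapped for both genes. Sult5a1 was higher in the later run in both high cholesterol groups. It was at 7.71 to 10.6 TPM against 3.53 to 4.17 TPM in Gramd1c+/+ mice. In Gramd1c-/- mice it was at 8.15 to 14.2 TPM against 4.50 to 6.94 TPM. On low cholesterol its runs overlapped in Gramd1c+/+ mice. The 1 later Gramd1c-/- mouse, at 4.90 TPM, was the lowest of its group. With 2 mice in 1 run of each high cholesterol group, the run and the single mice cannot be told apart.

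The members that varied most varied together. For each of the 36 pairs of tested genes, log2 CPM was correlated over the 19 mice after the group means were subtracted, with p from 100000 permutations within groups, adjusted over the 36 pairs. Sult2a1 and Sult2a2 had Pearson's r = 0.98 and Spearman's rho = 0.98 (permutation p = 1e-05 for both, the smallest these permutations can give, adjusted p = 0.00018 and 0.00036). This pair shares sequence, as printed above, so part of the relation may lie in shared reads. Sult3a1 and Sult3a2, which share no 100-base stretch, had r = 0.92 and rho = 0.92 (permutation p = 1e-05 and 3e-05, adjusted p = 0.00018 and 0.00054), and r = 0.90 without the 2 mice farthest from the median of Sult3a1.

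The relation also crossed the families. Sult2a1 correlated with Sult3a1 at r = 0.81 and rho = 0.67 (permutation p = 0.00195 and 0.0069, adjusted p = 0.0117 and 0.0355) and with Sult3a2 at r = 0.80 and rho = 0.74 (permutation p = 0.00098 and 0.00268, adjusted p = 0.00706 and 0.0241). Without the 2 farthest mice r was 0.57 and 0.63. Sult2a2 stood at r = 0.79 and rho = 0.60 with Sult3a1 (permutation p = 0.0033 and 0.0147, adjusted p = 0.0170 and 0.0588), so that its rank correlation did not pass the adjustment. With Sult3a2 it stood at r = 0.78 and rho = 0.69 (permutation p = 0.00098 and 0.00511, adjusted p = 0.00706 and 0.0329). Without the 2 farthest mice these r were 0.48 and 0.58. For Sult2a8, also of the SULT2A family and on the same chromosome, r was -0.08 and rho 0.05 with Sult2a1, and -0.08 and 0.06 with Sult2a2 (permutation p of r = 0.790 and 0.780). Without the 2 farthest mice r was 0.39 and 0.43, so these values depended on those mice. Sult1b1 and Sult3a2 passed the adjustment by rank only, at r = 0.61 and rho = 0.68 (permutation p = 0.0134 and 0.00548, adjusted p = 0.0536 and 0.0329), with r = 0.52 without the 2 farthest.

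Among the less variable genes, Sult1a1 and Sult1d1 correlated at r = 0.76 and rho = 0.77 (permutation p = 0.00032 and 0.00067, adjusted p = 0.00384 and 0.00804), and at 0.81 without the 2 farthest mice. Gramd1c+/+ mouse 5 on low cholesterol was the highest of its group for both. Sult1b1 and Sult2a8 reached r = 0.67 and rho = 0.67 (permutation p = 0.0101 and 0.00954, adjusted p = 0.0455 and 0.0429), and r = 0.53 without the 2 farthest. Sult1a1 and Sult2a8, the most abundant members, had r = -0.17 (permutation p = 0.524).

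**Figure D4:**
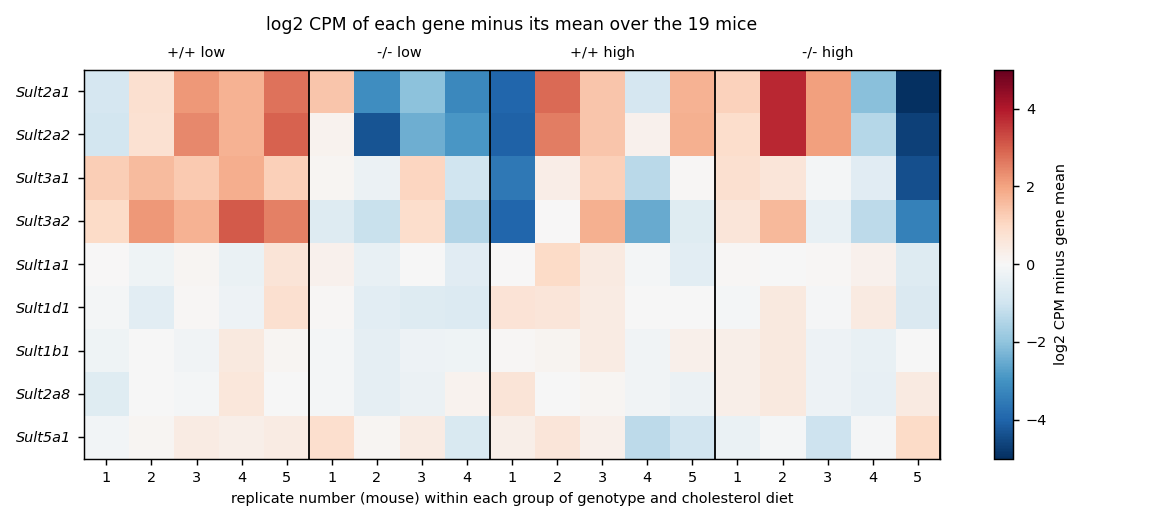
log2 CPM of 9 genes in each of the 19 mice minus the gene's mean over all mice (red higher, blue lower), with mice in columns by group and replicate number. The 4 upper rows (Sult2a1, Sult2a2, Sult3a1 and Sult3a2) are low together in Gramd1c+/+ mouse 1 and Gramd1c-/- mouse 5 on high cholesterol, while the 5 lower rows stay pale.

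**Figure D5:**
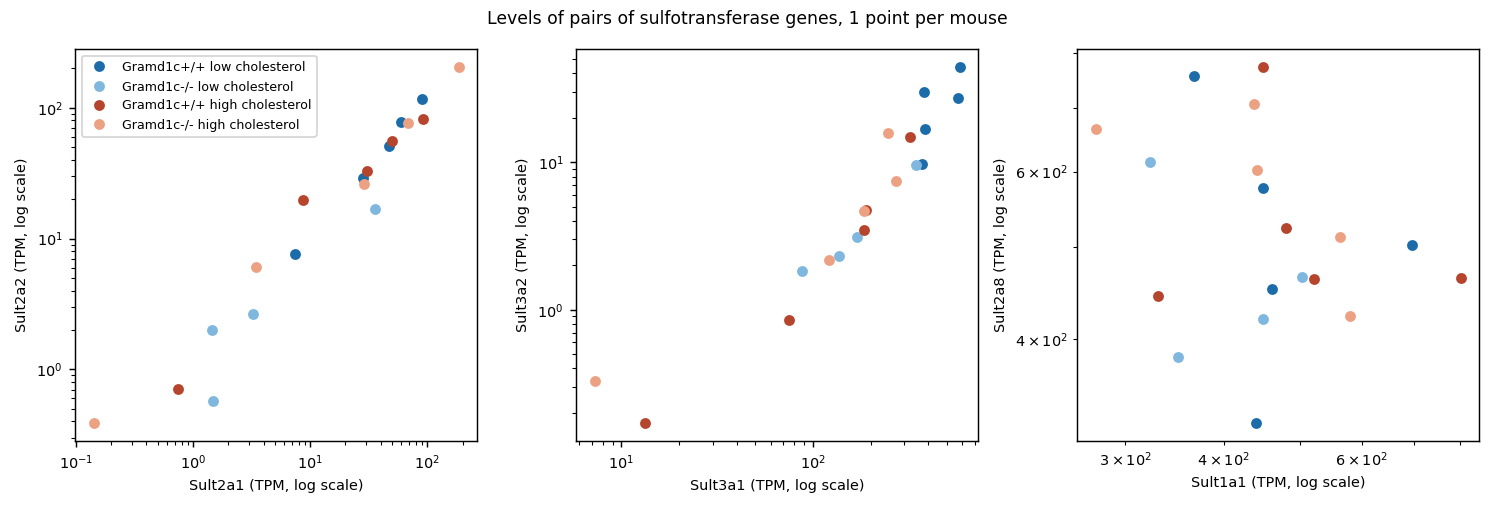
Levels in TPM of 3 pairs of genes on logarithmic axes, 1 point per mouse, coloured by group. Points of Sult2a1 with Sult2a2 and of Sult3a1 with Sult3a2 lie along a line (r = 0.98 and 0.92 with group means removed), and those of Sult1a1 with Sult2a8 scatter (r = -0.17).

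The genes outside the family whose log2 CPM followed Sult3a2 most closely over the 19 mice, of 14964 compared, were Cyp3a44 (r = 0.91), Cyp3a41a (0.91), Cyp3a41b (0.91), Fam19a2 (0.91) and Cyp3a16 (0.86). After subtraction of group means the values were 0.86, 0.90, 0.96, 0.93 and 0.88. The Cyp3a genes are cytochrome P450 enzymes, and Cyp3a41a and Cyp3a41b are near copies of each other whose reads are hard to divide. The genes most like Sult2a8, the most abundant member, were Chac2 (r = 0.88), Tyw5 (0.86), Paip2 (0.86), Selenof (0.85) and Gm20319 (0.85), which act in glutathione breakdown, tRNA modification, translation and the endoplasmic reticulum or are uncharacterised. Group means removed, these were 0.88, 0.85, 0.85, 0.87 and 0.92.

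Sult1e1 stayed outside the tests. It had 3, 13, 6, 7 and 6 counts in Gramd1c+/+ and 5, 0, 0 and 1 counts in Gramd1c-/- mice on low cholesterol, and 2, 7, 30, 1 and 1 and 7, 7, 2, 6 and 2 counts on high cholesterol. The 2 mice at 0 counts could hold up to 3 counts, or 0.204 and 0.189 TPM, by counting error alone. In the exact permutation test the genotypes on low cholesterol gave p = 0.0317, unadjusted, at 0.408 ± 0.220 TPM (n = 5) and 0.0881 ± 0.138 TPM (n = 4), levels at which single counts decide the value.

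Of 11 other cytosolic sulfotransferases listed, 6 passed the filter, and edgeR called 0 in any comparison. On low cholesterol all 6 had a log2 fold change below 0 between genotypes, with a median of -1.36, where 50.3% of all genes were below 0. In Gramd1c-/- mice all 6 were above 0 between diets, with a median of 2.70, where 47.4% of all genes were below 0. Of these 6, 5 had an unadjusted edgeR p under 0.05 in that comparison, as did 11.4% of all genes. The medians were 0.45 for genotype on high cholesterol, 0.14 for diet in Gramd1c+/+ mice and 2.52 for the interaction. Sult2a4, a SULT2A copy, had the smallest p for genotype on low cholesterol, at -3.32 (SE 1.33, edgeR adjusted p = 0.999). It also had the smallest p for the interaction, at 3.43 (SE 1.63). Sult1c2, a phenol sulfotransferase, had the smallest p in the other 3 comparisons, at 0.50 for genotype on high cholesterol, 0.21 for diet in Gramd1c+/+ and 0.72 (SE 0.26, edgeR adjusted p = 0.352) for diet in Gramd1c-/- mice. Sult2a3 to Sult2a6 are close copies of Sult2a1 and Sult2a2, so they are not separate evidence.

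The supply of PAPS was described by 13 genes for its synthesis, transport, breakdown and sulfate sources, all of which passed the filter, and edgeR called 0 in any comparison. Papss1, one of the enzymes that make PAPS, had the smallest p for both diet comparisons, at -0.46 (SE 0.15, edgeR adjusted p = 0.385) in Gramd1c+/+ and -0.49 (SE 0.16, adjusted p = 0.315) in Gramd1c-/- mice. Slc35b2, a PAPS carrier of the Golgi membrane, was at -0.31 (SE 0.15) for genotype on low cholesterol and at 0.25 (SE 0.20) for the interaction. Ethe1, a mitochondrial persulfide dioxygenase, was at -0.51 (SE 0.23) for genotype on high cholesterol. The medians over the list lay between -0.17 and -0.06 in the 5 comparisons.

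Of 7 listed genes for sulfatases, which remove sulfate groups, and for activators of sulfatases, 6 were matched and tested. Sts, the steroid sulfatase, was not matched. Whether the genes tested act on products of the cytosolic sulfotransferases was not tested. Arsg, a lysosomal sulfatase, was lower on high cholesterol in Gramd1c+/+ mice, at 5.99 ± 1.85 TPM against 11.0 ± 3.05 TPM (n = 5 each). Its log2 fold change was -0.85 (SE 0.18, edgeR adjusted p = 0.0383). It was the 1 gene called in any of the lists, in a comparison where 0.44% of all genes were called. In Gramd1c-/- mice its diet effect was -0.53 (SE 0.19, adjusted p = 0.352), and for genotype on high cholesterol it was at 0.23 (SE 0.18). Arsa, which acts on sulfatides, had the smallest p for genotype on low cholesterol (0.54, SE 0.19) and for the interaction (-0.73, SE 0.26), with edgeR adjusted p = 0.999 and 0.99993. The medians of the list were between -0.26 and 0.09.

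Among 11 nuclear receptors and transcription factors known to act on hepatic sulfotransferase genes, all tested, edgeR called 0 in any comparison. Bcl6, a repressor of female-biased liver genes, was at 1.02 (SE 0.34, edgeR adjusted p = 0.999) for genotype on low cholesterol. It had 5.02 ± 4.23 TPM (SD, range 2.26 to 11.3) in Gramd1c-/- and 2.42 ± 0.325 TPM (range 2.04 to 2.88) in Gramd1c+/+ livers. The ranges overlapped, and the highest Gramd1c-/- mouse weighs heavily on this difference. Cux2, a factor found mainly in female liver, was at -1.16 (SE 0.54, adjusted p = 0.621) for diet in Gramd1c+/+ mice. Nr1i3, the xenobiotic receptor CAR, was at 0.97 (SE 0.28, adjusted p = 0.257) for diet in Gramd1c-/- mice and at 0.50 (SE 0.25) for genotype on high cholesterol, and Rora was at -0.41 (SE 0.22) for the interaction. The medians were between -0.27 and 0.03.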

How the data were processed

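Liver poly(A) RNA of 19 mice was sequenced, 1 library per mouse. The authors deposited whole-number counts per Ensembl gene, not normalized, with each gene's position and length. STAR 2.5.2b and build GRCm38 appear in the submitters' processing notes. How reads were counted, with or without strand, and from which annotation, is not given in the sources used here. A symbol was found for 48970 of 49315 gene IDs. No 2 libraries were identical. Each library is labelled as its own sample, and p-values measure the spread between these samples.

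TPM was computed here from counts and lengths. edgeR 4.0.16 (R 4.3.3) tested counts in 1 fit of 4 groups: TMM, filterByExpr with a minimum count of 10 (15016 genes), quasi-likelihood F test, Benjamini-Hochberg over all genes. Intervals are 95%, from the test's degrees of freedom. The study's methods state ANOVA, which is not a count test. Exact permutation tests of mean TPM were two-sided. Log2 CPM used a prior count of 2. The test was checked on simulated data. Alternatives were DESeq2 1.42.0, RLE, no filter, only the groups compared, a replicate block, adjustment for the 2 runs of animal numbers, limma 3.58.1 on log2(TPM + 1), voom with sample weights, each mouse left out, and 2 libraries left out. All 10 members were named; from each other list, at most 3 genes called, or otherwise the gene with the smallest p; and the 5 genes most correlated with Sult3a2 and with the most abundant member. Cct7, Gjb1 and Rdh16f2 were named after their values were seen, as were some mice. The members and lists were chosen with earlier results of these data known. Sequences are from GENCODE M21 and RefSeq. Python 3.11.15, scipy 1.17.1 and matplotlib 3.10.9 were used.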

Additional observations from a re-analysis of the deposited data

Results flagged for a closer look

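Single mice stood far from the rest of their group in 8 of the 40 sets formed by 10 genes and 4 groups, by the ratio of the gap to the range against Dixon's 95% critical value, which chance exceeds in about 1 of 20 sets where values are normally distributed. These are linear TPM, and on the log2 scale 2 of the 8 exceeded it as well, Sult1d1 and Sult5a1. On low cholesterol, Gramd1c-/- mouse 1 held 35.7 TPM of Sult2a1 and 16.7 TPM of Sult2a2, where the 3 other mice held at most 3.22 and 2.64 TPM, and Gramd1c-/- mouse 3 held 9.57 TPM of Sult3a2, where the others held at most 3.11 TPM. Gramd1c+/+ mouse 5 held 695 TPM of Sult1a1 and 329.9 TPM of Sult1d1, above 461 and 187 TPM in the others. Gramd1c+/+ mouse 1 held 6.77 TPM of Sult5a1, below the 9.54 to 10.1 TPM of the others. On high cholesterol, Gramd1c+/+ mouse 1 held 773 TPM of Sult2a8, above the 444 to 523 TPM of the others, and Gramd1c+/+ mouse 3 held 1.61 TPM of Sult1e1, above at most 0.401 TPM. Sets of genes that correlate share these mice, so the 8 are not independent.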

How the results depend on the processing

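edgeR called 0 of 9 genes in each of the 5 comparisons. The alternatives adjusted over all genes, leaving out each mouse in turn included, also called 0, with the exception of voom with sample weights for diet in Gramd1c+/+ mice, which called 1 (Sult3a2); the cause was not tested. The replicate numbers did not pair the mice, since residuals of same-numbered mice correlated at a mean of -0.069 over 27 pairs, and of other mice at 0.017 over 108. With the replicate number as a block edgeR called 0 of 9 genes in each comparison, and 1 log2 fold change turned sign, that of Sult1a1 for the interaction, to 0.055 from -0.048. Over the 9 genes and 5 comparisons, leaving out 1 mouse gave 810 values with the same sign and call and 45 with the other sign. The other alternatives gave 409 and 17, and 6 that passed 0.05, 5 of them in the unadjusted exact permutation test. Leaving out 1 mouse gave 2 to 4 of 9 genes with an unadjusted p under 0.05 for genotype on low cholesterol, 0 to 3 for diet in Gramd1c-/- mice and 0 to 2 for the interaction. Sult2a1, Sult2a2 and Sult3a2 reached 4 counts or fewer in single mice, which limits their folds, and Sult1e1 was too low to test.

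With Gramd1c+/+ mouse 2 on low and Gramd1c-/- mouse 5 on high cholesterol left out, the log2 fold change turned sign to -0.0038 for Sult5a1 (genotype on low cholesterol), -0.0076 for Sult2a8, 0.25 for Sult3a1 and -0.28 for Sult5a1 (genotype on high cholesterol), 0.12 for Sult3a1 (diet in Gramd1c-/- mice) and 0.14 for Sult1a1 and -0.28 for Sult5a1 (the interaction). With limma on log2(TPM + 1), the log2 fold change turned sign to -0.049 for Sult5a1 (genotype on low cholesterol), -0.070 for Sult2a1, -0.083 for Sult2a2 and 0.0030 for Sult3a1 (genotype on high cholesterol) and 0.080 for Sult1a1 (the interaction). With voom, the log2 fold change turned sign to 0.0069 for Sult1a1 and 1.02 for Sult3a1 (genotype on high cholesterol) and 0.19 for Sult1a1 (the interaction). As the log2 ratio of mean TPM, the log2 fold change turned sign to 0.084 for Sult3a1 (genotype on high cholesterol). For genotype on low cholesterol, leaving out 1 mouse gave -0.23 to 0.25 for Sult5a1 and -0.27 to 0.025 for Sult2a8. For diet in Gramd1c+/+ mice, leaving out 1 mouse gave -0.087 to 0.26 for Sult2a8, -1.03 to 0.13 for Sult2a1, -0.097 to 0.35 for Sult1a1 and -0.0066 to 0.21 for Sult1b1. For the interaction, leaving out 1 mouse gave -0.23 to 0.23 for Sult1a1, -0.075 to 0.39 for Sult1d1 and -0.31 to 0.31 for Sult5a1. For diet in Gramd1c-/- mice, leaving out 1 mouse gave -0.60 to 0.022 for Sult5a1, -0.50 to 0.31 for Sult3a1 and -0.24 to 1.33 for Sult3a2. For genotype on high cholesterol, leaving out 1 mouse gave -0.59 to 1.37 for Sult3a2, -0.36 to 0.49 for Sult3a1, -0.19 to 0.022 for Sult1b1, -0.28 to 0.32 for Sult5a1, -0.015 to 0.25 for Sult2a8, -0.74 to 1.31 for Sult2a1 and -0.70 to 1.18 for Sult2a2.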
